A study of Mus musculus with 36 samples.

Results

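Kruppel-like factor genes (Klf genes) are described here across BDNF- and KCl-stimulated mouse cortical neurons. The members are a fixed list of 10 named genes, Klf2, Klf3, Klf4, Klf6, Klf7, Klf9, Klf10, Klf11, Klf13 and Klf16, out of 26709 genes in the RNA table and was taken by name, although results of these data were known when the list was drawn up. Cortical neurons of CD-1 mouse embryos at embryonic day 15 were kept for 7 days in vitro, and every culture was first silenced with 100 µM AP-5, which blocks NMDA receptors, and 1 µM TTX, which blocks sodium channels. Stimulated cultures had 2 h of this block before BDNF at 10 ng/ml, a neurotrophin acting through the receptor TrkB, or KCl at 55 mM, which depolarises the membrane, was applied for 1, 6 or 10 h. Control cultures stayed in AP-5 and TTX for 3, 8 or 12 h in all and were collected beside them. RNA-seq and ATAC-seq, which counts reads at open chromatin, each covered 18 samples in 9 groups of 2, so that each assay held 6 controls. The study calls the 2 samples of a group biological replicates, and the labels do not say whether these came from separate cultures, so that p-values below measure the spread between these samples. Replicates A and B of an RNA group carry the letters of the deposited columns, whereas those of an ATAC group only mark the order of its columns and are not tied to the RNA letters.

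Klf proteins are transcription factors that bind GC-rich and CACCC-containing DNA through zinc fingers at their C-terminal end, while their N-terminal parts recruit different cofactors. Klf2, Klf4, Klf6 and Klf7 are mostly known as activators, Klf9, Klf10, Klf11, Klf13 and Klf16 as repressors that bind the SIN3 corepressor, and Klf3 as a repressor that binds CtBP. In neurons the family is known for setting the capacity of axons to grow, with Klf4 and Klf9 limiting growth and Klf6 and Klf7 promoting it.

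RNA libraries held 8.51 to 36.7 M reads and ATAC libraries 1.24 to 6.24 M reads in peaks. RNA values are normalised read counts, the reads of a gene divided by the size factor of its library. A log2 difference is the difference between group means of log2(normalised read count + 1), and a gene is called where limma, fitted on the 16209 genes with a mean of at least 10, gave a Benjamini-Hochberg adjusted p below 0.1 (two-sided). All 10 Klf genes passed that filter. Gene positions are those of mm10 with GENCODE vM21. Control times were pooled, following the study, and 0 of 16209 genes differed between control times by limma (0%, and 0% again for 10 h against 1 h), with 164 genes at 6 h and 181 genes at 10 h under an unadjusted p of 0.05. None of the 10 Klf genes was among the latter, and edgeR and DESeq2 also called 0 of them. The 2 RNA libraries of KCl at 6 h differed from each other more than any other pair, with a chi-square of 36.4 per degree of freedom against 2.33 to 9.77 in the other pairs. The 9 neuronal markers summed to 47740 to 58800 normalised reads per library, while the 6 endothelial markers summed to 275.8 to 1233 in controls, most of it Kdr (mean 651), with Cdh5 at 32.7, Pecam1 at 9.90 and Cldn5 at 0.163. The astrocyte markers summed to 10560 to 15190 in controls and to 8596 to 10730 at 6 and 10 h of either stimulus, and progenitor markers to 6443 to 9050 and to 5104 to 6051. The oligodendrocyte lineage markers summed to 5883 to 6323 in controls and lay outside that range in every KCl group, at 4397 to 4929 after 1 h, 6913 to 7296 after 6 h and 6619 to 7302 after 10 h, and in the BDNF groups of 1 h (6415 to 6694) and 6 h (5606 to 5721). The mural and fibroblast markers summed to 2944 to 3797 in controls to 3832 to 4321 after 1 h of KCl, and to 2768 to 2852 and 2703 to 2748 after 10 h of BDNF and KCl. The part of all these cells in the Klf values was not tested. In these bulk samples fewer cells of a type and less RNA per cell cannot be told apart. Klf3, Klf7 and Klf13 overlap annotated genes on the other strand, and whether the counting used strand is not given in the sources used here, so their reads cannot be told apart from those of Gm20033, of Gm26649 and Gm13748, and of Gm27252 and E030018B13Rik.

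The sequences that carry the chromatin part of these data are shown first. In each, capitals mark matches on either strand to the cyclic AMP response element (CRE, TGACGTCA), its core TGACG or the AP-1 site TGANTCA (N is any base). They also mark the CArG box of serum response factor and the MEF2 box. These 2 were searched as letter patterns that allow A or T at the middle bases. The MEF2 pattern also allows C or T first and A or G last. Positions are those of mm10, and peak sequences are the central 300 bases at most. The first set holds 4 of the 5 Klf-linked peaks that were more accessible after 1 h of BDNF, and each of these carries an AP-1 match. The remaining one, a Klf13-linked peak 12.4 kb from the start, holds no AP-1 match and is not printed.
Klf6 peak 31.4 kb downstream (chr13:5892796-5893045, + strand): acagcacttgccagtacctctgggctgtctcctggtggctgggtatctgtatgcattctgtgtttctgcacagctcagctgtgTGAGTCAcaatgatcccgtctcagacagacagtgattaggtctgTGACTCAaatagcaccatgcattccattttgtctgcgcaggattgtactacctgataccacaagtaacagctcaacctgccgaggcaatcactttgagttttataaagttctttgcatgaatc
Klf9 peak 46.7 kb downstream (chr19:23187823-23188122, + strand): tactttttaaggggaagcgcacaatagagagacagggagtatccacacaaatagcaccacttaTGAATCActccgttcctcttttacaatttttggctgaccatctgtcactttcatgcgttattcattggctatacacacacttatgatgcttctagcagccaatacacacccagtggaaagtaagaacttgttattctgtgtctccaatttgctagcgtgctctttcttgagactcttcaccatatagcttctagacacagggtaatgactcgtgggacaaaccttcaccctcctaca
Klf4 peak 9.4 kb upstream (chr4:55541761-55541967, + strand): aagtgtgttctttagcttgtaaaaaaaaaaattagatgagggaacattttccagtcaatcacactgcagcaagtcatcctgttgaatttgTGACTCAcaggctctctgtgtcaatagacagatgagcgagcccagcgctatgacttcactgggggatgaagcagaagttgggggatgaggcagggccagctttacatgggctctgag
Klf13 peak at an internal start (chr7:63925214-63925513, + strand): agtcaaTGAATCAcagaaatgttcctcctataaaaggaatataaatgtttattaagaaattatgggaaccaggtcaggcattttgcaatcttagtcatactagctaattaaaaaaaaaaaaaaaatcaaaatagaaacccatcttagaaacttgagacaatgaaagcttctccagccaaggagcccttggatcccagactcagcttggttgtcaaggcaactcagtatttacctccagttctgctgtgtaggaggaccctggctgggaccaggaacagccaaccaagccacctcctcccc

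The next peak is shown because it had the largest called gain with KCl among the Klf4-linked regions, and it holds none of these motifs.
Klf4 peak 14.7 kb upstream (chr4:55547058-55547357, + strand): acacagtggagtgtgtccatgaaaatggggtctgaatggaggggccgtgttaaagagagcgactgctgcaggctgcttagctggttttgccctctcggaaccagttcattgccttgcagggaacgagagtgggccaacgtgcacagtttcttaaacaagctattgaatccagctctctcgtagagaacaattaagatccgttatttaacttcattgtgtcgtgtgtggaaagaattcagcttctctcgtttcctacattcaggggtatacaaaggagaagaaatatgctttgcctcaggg

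A set of 3 promoters, 250 bases before to 50 after the RefSeq start (GRCm38.p6), are shown because the transcripts of these genes behaved differently, with Klf9 higher with BDNF than with KCl at 1 h, Klf4 the reverse and Klf2 called lower with KCl and in neither direction with BDNF.
Klf9 promoter (chr19:23140976-23141275, + strand): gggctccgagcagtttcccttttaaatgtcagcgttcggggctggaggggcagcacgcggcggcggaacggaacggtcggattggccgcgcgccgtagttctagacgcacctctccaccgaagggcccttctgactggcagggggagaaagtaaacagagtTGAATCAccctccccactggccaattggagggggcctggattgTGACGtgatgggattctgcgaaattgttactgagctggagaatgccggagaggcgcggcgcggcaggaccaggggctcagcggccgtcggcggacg
Klf4 promoter (chr4:55532426-55532725, - strand): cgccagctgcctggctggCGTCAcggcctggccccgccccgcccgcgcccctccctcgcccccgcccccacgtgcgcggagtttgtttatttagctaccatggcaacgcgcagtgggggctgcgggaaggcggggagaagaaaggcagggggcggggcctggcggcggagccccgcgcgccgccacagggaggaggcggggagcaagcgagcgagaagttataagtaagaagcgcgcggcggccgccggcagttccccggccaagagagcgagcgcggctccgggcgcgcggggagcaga
Klf2 promoter (chr8:72318812-72319111, + strand): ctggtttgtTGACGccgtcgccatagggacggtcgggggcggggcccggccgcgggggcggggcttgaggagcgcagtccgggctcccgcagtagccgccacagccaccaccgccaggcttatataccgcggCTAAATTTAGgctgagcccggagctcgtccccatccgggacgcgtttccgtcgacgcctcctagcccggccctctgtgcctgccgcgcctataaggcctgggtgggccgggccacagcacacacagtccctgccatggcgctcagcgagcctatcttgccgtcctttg

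After 1 h of BDNF, 7 of the 10 Klf genes rose and 1 fell, against 21.3% of all genes higher and 19.0% lower. Klf10 rose most (13.2-fold), followed by Klf9 (5.13-fold), Klf16 (4.87-fold), Klf4 (2.77-fold), Klf6 (2.02-fold), Klf13 (1.63-fold) and Klf3 (1.46-fold), while Klf11 fell and Klf2 and Klf7 were not called. The median log2 difference over the 10 genes was 0.86, beside 0.00 over all genes, and the median size regardless of sign was 1.11 beside 0.21. At 6 h, 6 were higher and 3 lower (22.1% and 21.1% of all genes), and at 10 h 4 were higher and 3 lower (21.1% and 19.5%). KCl gave a more even split, with 4 higher and 4 lower at 1 h (26.5% and 28.2%), 4 and 5 at 6 h (33.4% and 33.1%) and 3 and 5 at 10 h (29.0% and 28.2%). All 6 of these comparisons share the 6 control libraries.

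**Figure D1:**
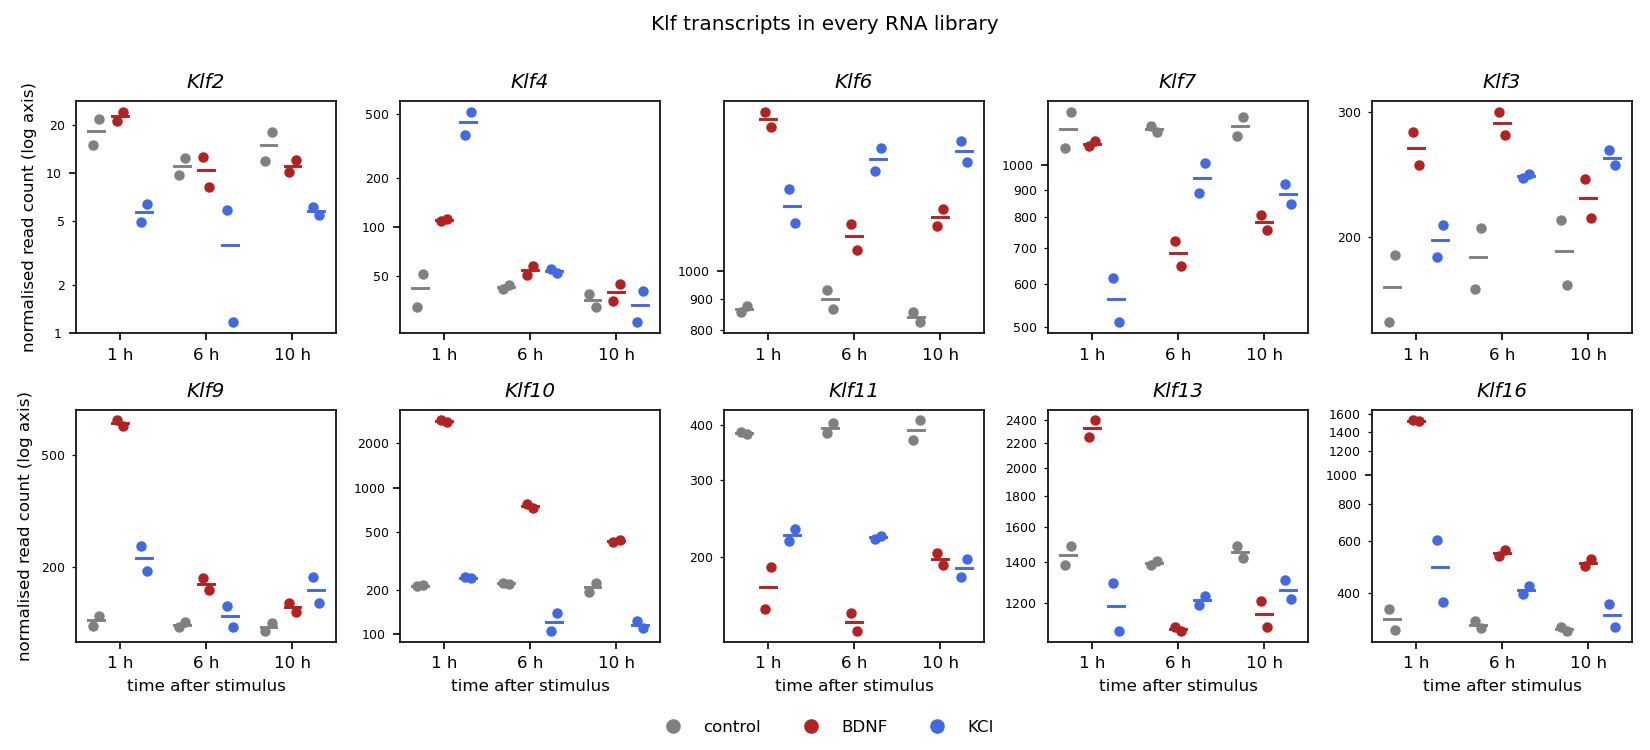
Normalised read count (log axis) of each Klf gene in each of the 18 RNA libraries against time after stimulus, in grey for controls, red for BDNF and blue for KCl, with a bar at the mean of each group of 2. Klf10, Klf9, Klf16 and Klf13 peak in the BDNF libraries of 1 h, Klf4 in the KCl libraries of 1 h, and Klf11 lies below the controls in every stimulated library.

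Among the SIN3-binding members, Klf10 (ENSMUSG00000037465, chr15:38291463-38300706, - strand), also known as the TGF-beta-inducible early gene TIEG1, had the largest response. Its normalised read count was 193.5 in the lowest, 218 in the median and 225 in the highest control, 2880.1 and 2812.5 after 1 h of BDNF, 769 and 723 after 6 h, and 428 and 439 after 10 h. With KCl it was 244 and 242 after 1 h, 105 and 139 after 6 h, and 122 and 110.0 after 10 h. All BDNF libraries thus lay above every control, and the KCl libraries of 6 and 10 h below every control. The log2 difference from controls was 3.72 (SE 0.09, adjusted p = 3.02e-18) after 1 h of BDNF, the 22nd largest rise of all genes, 1.79 after 6 h and 1.01 after 10 h. With KCl it was 0.18 at 1 h, which was not called (adjusted p = 0.131) although both libraries lay above the controls, and Klf10 fell by 0.83 at 6 h and by 0.89 at 10 h. Klf10 was the one member on which late BDNF and late KCl had opposite called signs. BDNF exceeded KCl 11.7-fold at 1 h, 6.12-fold at 6 h and 3.72-fold at 10 h. From 6 to 10 h of BDNF it fell by 0.78 (adjusted p = 0.00355), 1 of the 0.142% of all genes that fell (0.0740% rose), and this call was lost without BDNF 6 h replicate A or without BDNF 10 h replicate B (adjusted p = 0.145 in each).

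Klf9 (ENSMUSG00000033863, chr19:23141226-23168134, + strand), a target of thyroid hormone and glucocorticoid receptors that acts in neuronal maturation, had control values from 119 through a median of 126 to 135. BDNF gave 665 and 636 after 1 h, 184 and 167 after 6 h, and 149 and 139 after 10 h. KCl gave 238 and 195 after 1 h, 146 and 123 after 6 h, and 185 and 149 after 10 h. Only the KCl libraries of 6 h overlapped the controls. The rise with BDNF was 2.36 (SE 0.11, adjusted p = 1.50e-13) at 1 h and 0.47 at 6 h, and the difference at 10 h was 0.19 (adjusted p = 0.186). With KCl Klf9 rose by 0.77 at 1 h and by 0.40 at 10 h, with 0.09 at 6 h between them (adjusted p = 0.496), and the call at 10 h was lost without KCl 10 h replicate A (0.24, adjusted p = 0.173).

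Klf16 (ENSMUSG00000035397, chr10:80567124-80577321, - strand), a repressor that competes for Sp1 sites, ran from 297 through a median of 306 to 352 in controls. It reached 1531 and 1521 after 1 h of BDNF and stayed at 531 and 556 after 6 h and 493 and 519 after 10 h. KCl gave 605 and 372 after 1 h, 397 and 423 after 6 h, and 367 and 306 after 10 h. All BDNF libraries were above the controls, and of the KCl libraries only KCl 10 h replicate B was within their range. The rises were 2.28 (SE 0.12), 0.79 and 0.69 with BDNF and 0.60 and 0.39 with KCl at 1 and 6 h, while KCl at 10 h gave 0.10 (adjusted p = 0.523).

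Klf13 (ENSMUSG00000052040, chr7:63886351-63938915, - strand), a member also studied in T cells, changed direction over time. Controls ranged from 1385 through 1416 to 1488, and BDNF gave 2254 and 2398 at 1 h but 1094.5 and 1079.6 at 6 h and 1207 and 1094 at 10 h. KCl gave 1295 and 1079, 1189 and 1234, and 1307 and 1219 at the same times. The 2 BDNF libraries of 1 h were above every control and all other stimulated libraries below every control. Klf13 rose by 0.70 (SE 0.07) after 1 h of BDNF and fell by 0.39 and 0.31 after 6 and 10 h. With KCl it fell by 0.27, 0.24 and 0.18, and these calls were lost at 1 h without KCl 1 h replicate B (-0.14, adjusted p = 0.167) and at 10 h without KCl 10 h replicate B (-0.13, adjusted p = 0.279).

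Klf11 (ENSMUSG00000020653, chr12:24651274-24662789, + strand), the closest relative of Klf10 in name as TIEG2, was the member that fell under all 6 conditions. It ran from 371 through a median of 386 to 411 in controls and was 152 and 190.04, 149 and 135, and 205 and 191 after 1, 6 and 10 h of BDNF. KCl gave 217 and 232, 220.2 and 223, and 179.7 and 198. Every stimulated library lay below every control. Klf11 fell by 1.19 (SE 0.09, adjusted p = 1.29e-09), 1.45 and 0.98 with BDNF and by 0.79, 0.81 and 1.04 with KCl, and its fall after 6 h of BDNF was the 42nd largest of all genes.

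Of the activators, Klf4 (ENSMUSG00000003032, chr4:55527143-55532466, - strand), a pluripotency factor, was the gene with the strongest KCl response. Controls held 32.0, 39.8 and 51.6 as lowest, median and highest values. KCl gave 369 and 519 after 1 h, 55.1 and 52.1 after 6 h, and 25.7 and 40.3 after 10 h, and BDNF gave 109.5 and 111.4, 50.4 and 57.6, and 35.0 and 44.7. Both groups of 1 h were above the controls, the KCl libraries of 6 h lay just above them, and BDNF at 6 h and the groups of 10 h overlapped them. Klf4 rose by 3.44 (SE 0.20, adjusted p = 4.88e-12, 10.9-fold) after 1 h of KCl and by 1.47 (2.77-fold) after 1 h of BDNF. The rises of 0.45 with BDNF (adjusted p = 0.0824) and 0.44 with KCl (adjusted p = 0.0602) at 6 h were lost against the controls of 6 h alone (adjusted p = 0.338 and 0.280). They were also lost without control 1 h replicate A (0.129 and 0.102), without control 10 h replicate B (0.138 and 0.105) or without either stimulated library of that time, and for BDNF without control 10 h replicate A (0.106). At 10 h the differences were 0.01 and -0.28 and were not called, and the latter was called without KCl 10 h replicate B (-0.59, adjusted p = 0.0617).

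Klf6 (ENSMUSG00000000078, chr13:5861482-5870394, + strand) and Klf7 (ENSMUSG00000025959, chr1:64029447-64122282, - strand), close relatives that both support axon growth, went apart. Klf6 ran from 824 through a median of 862 to 929 in controls. It was 1809.5 and 1705, 1190.0 and 1081, and 1181 and 1258 after 1, 6 and 10 h of BDNF, and 1355 and 1194, 1452 and 1577, and 1619.5 and 1499.7 after KCl. Every stimulated library exceeded every control, and Klf6 was the member that rose under all 6 conditions. The rises were 1.02 (SE 0.07), 0.39 and 0.49 with BDNF and 0.55, 0.80 and 0.84 with KCl. Klf7 ran from 1077 through a median of 1168 to 1259 in controls, and gave 1087 and 1108, 722 and 649.6, and 808 and 758 with BDNF and 616 and 509, 889 and 1008, and 923 and 847 with KCl. BDNF at 1 h overlapped the controls, and all other stimulated libraries lay below them. Klf7 fell by 0.77 and 0.58 after 6 and 10 h of BDNF and by 1.06 (SE 0.08), 0.31 and 0.41 with KCl, with -0.09 after 1 h of BDNF (adjusted p = 0.400).

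Klf2 (ENSMUSG00000055148, chr8:72319033-72321656, + strand), best known from endothelial cells and resting T cells, was the scarcest member, at 1 to 46 reads per library. Its normalised values ran from 9.79 through 13.8 to 21.9 in controls, were 21.3 and 24.4, 12.6 and 8.23, and 10.2 and 12.1 after 1, 6 and 10 h of BDNF, and 4.94 and 6.42, 5.90 and 1.16, and 6.11 and 5.45 after KCl. All 6 KCl libraries lay below every control, while each BDNF group overlapped the controls. Klf2 fell by 1.22 (SE 0.38, adjusted p = 0.0116), 2.00 and 1.19 with KCl, and the call at 1 h was lost without KCl 1 h replicate A (-1.06, adjusted p = 0.113). With BDNF the differences of 0.63, -0.46 and -0.35 were not called by limma, and edgeR on the recovered reads gave an adjusted p of 0.0995 at 1 h. Of the endothelial markers, Cldn5, Tek and Flt1 averaged 0.163, 2.04 and 4.47 normalised reads in controls and 0.00, 3.21 and 2.76 after 1 h of KCl, and these 3 of the 6 were too low to be tested, while Pecam1 rose from 9.90 to 22.3. The endothelial sum was 275.8 to 1233 in controls and 285.1 to 933.5 in KCl libraries and was mostly Kdr. The microglial markers summed to 122.3 to 174.2 in controls and to 115 to 197.8 in KCl libraries. Among them Cx3cr1 was lower after 6 and 10 h of KCl (-2.115 and -1.72), and the others tested were not called at those times. The part of these cells in the Klf2 values was not tested.

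Klf3 (ENSMUSG00000029178, chr5:64803388-64832901, + strand), the CtBP-binding member, rose modestly. Controls ran from 151.7 through 180 to 211.5, BDNF gave 281.3 and 252.6, 300.9 and 279.1, and 241.9 and 212.7, and KCl gave 187.7 and 208.5, 242.8 and 245.4, and 265.2 and 252.7. Only KCl at 1 h overlapped the controls, and BDNF 10 h replicate B lay barely above the highest control. The rises were 0.55 (SE 0.11), 0.67 and 0.32 with BDNF and 0.42 and 0.51 with KCl at 6 and 10 h, with 0.12 after 1 h of KCl (adjusted p = 0.405). The call after 10 h of BDNF was lost against the controls of 10 h alone (0.25, adjusted p = 0.231) and without BDNF 10 h replicate A (0.22, adjusted p = 0.316).

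**Figure D2:**
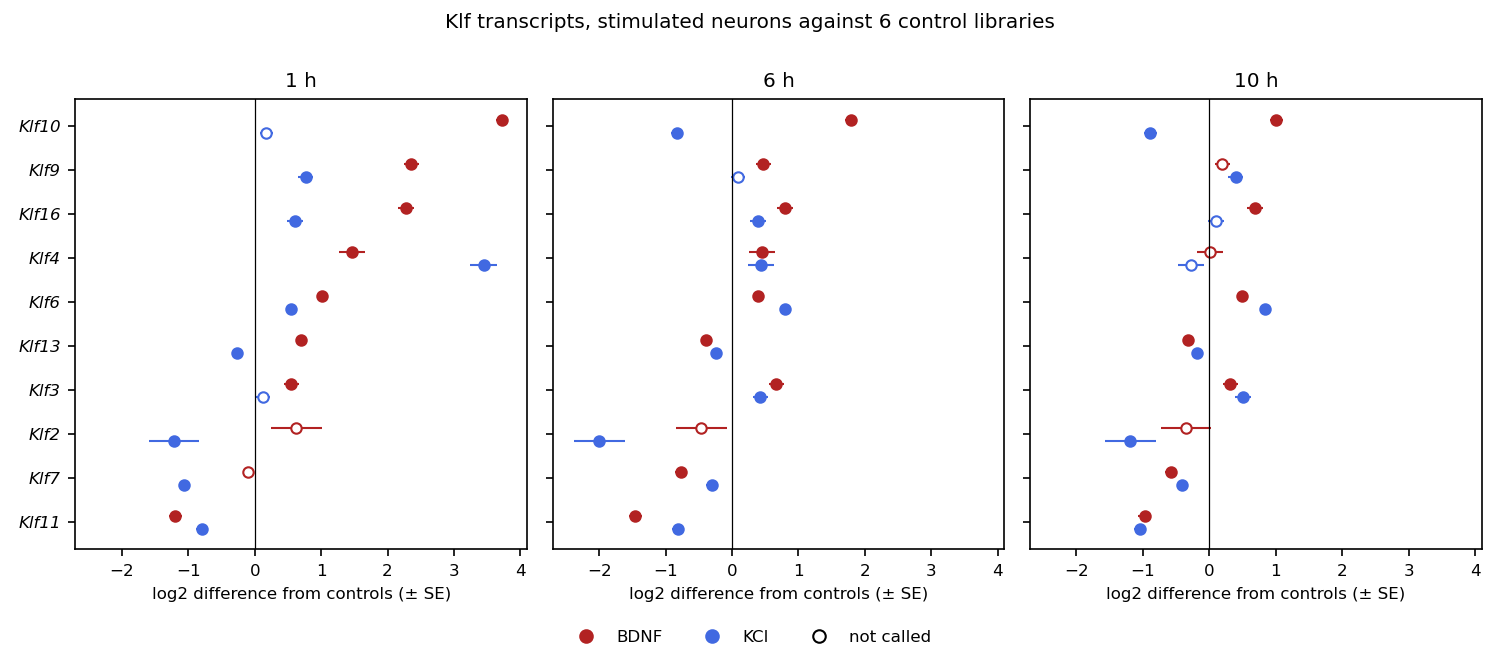
Log2 difference from controls of each Klf gene for BDNF and KCl at 1, 6 and 10 h, with error bars of 1 SE and filled points for calls at an adjusted p below 0.1 (limma). The BDNF value of Klf10 at 1 h, 3.72, and the KCl value of Klf4 at 1 h, 3.44, are the largest, and Klf11 lies below 0 throughout.

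The direct test of BDNF against KCl asked which members told the stimuli apart. At 1 h all 10 Klf genes differed, 8 higher with BDNF and 2 higher with KCl, against 24.6% and 18.2% of all genes. The largest gaps were Klf10 at 3.54 (SE 0.11, adjusted p = 1.25e-15), Klf4 at -1.98 (3.94-fold higher with KCl), Klf2 at 1.84, Klf16 at 1.68 and Klf9 at 1.59. Klf13, which rose with BDNF and fell with KCl, differed by 0.98, and Klf7, which was called with KCl, by 0.97. Klf6 (0.47), Klf3 (0.43) and Klf11 (-0.40) differed less, and the last 2 calls depended on single libraries. The Klf3 call was lost without BDNF 1 h replicate A (adjusted p = 0.153) or KCl 1 h replicate A (0.126), and the Klf11 call without BDNF 1 h replicate A (-0.24, adjusted p = 0.198).

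At 6 h, 4 were higher with BDNF and 3 with KCl (29.6% and 27.8% of all genes), and at 10 h 2 and 1 (23.1% and 21.8%). Klf10 stayed the widest gap at 2.62 and 1.89, and Klf16 was higher with BDNF at 0.41 and 0.59. Klf6 turned from higher with BDNF at 1 h to higher with KCl at 6 h (-0.42) and 10 h (-0.35). Klf7 turned in the same way at 6 h (-0.47), with -0.18 at 10 h (adjusted p = 0.167). Klf11 was lower with BDNF at 6 h (-0.64), and at 10 h the difference was 0.07 (SE 0.11, adjusted p = 0.673). For Klf4 it was 0.01 at 6 h with an SE of 0.24. At 6 h the calls of Klf16, Klf9 (0.38) and Klf2 (1.54) each rested on single libraries. Klf16 was lost without BDNF 6 h replicate B (adjusted p = 0.121) or KCl 6 h replicate A (0.117), Klf9 without BDNF 6 h replicate A (0.153) or KCl 6 h replicate B (0.205), and Klf2 without KCl 6 h replicate B (0.70, adjusted p = 0.257).

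**Figure D3:**
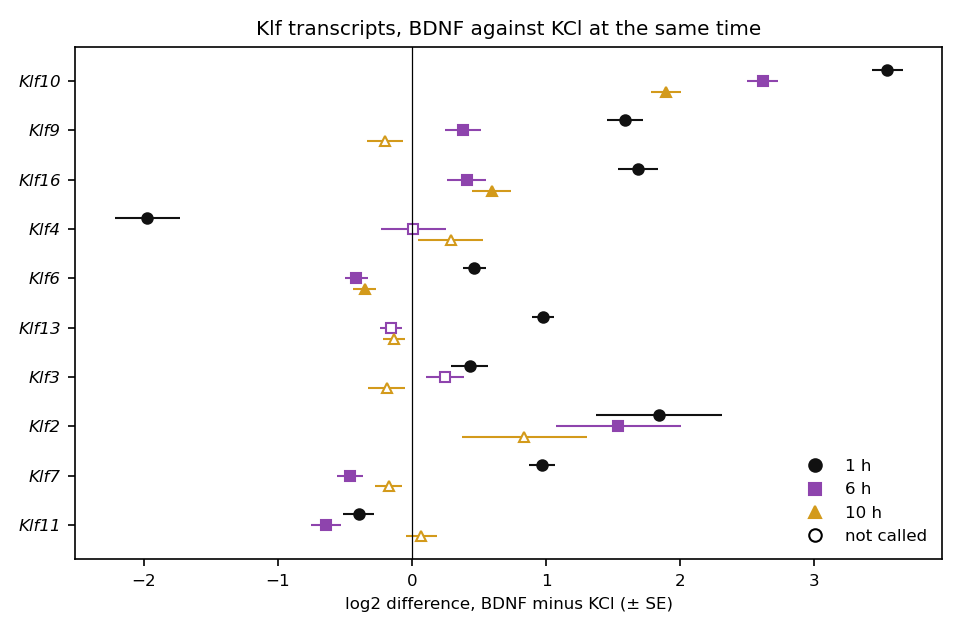
Log2 difference of BDNF minus KCl for each Klf gene at 1, 6 and 10 h, with error bars of 1 SE and filled points for calls at an adjusted p below 0.1 (limma). Klf10 stays far above 0, Klf4 is at -1.98 at 1 h and near 0 later, and Klf6 and Klf7 cross from positive to negative between 1 and 6 h.

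The course of the response was tested between times of the same stimulus. From 1 to 6 h of BDNF 8 members fell and 0 rose, against 17.7% and 15.8% of all genes. Klf10 fell by 1.93, Klf9 by 1.89, Klf16 by 1.49, Klf13 by 1.10, Klf2 by 1.09, Klf4 by 1.02, Klf7 by 0.68 and Klf6 by 0.63. Klf3 gave 0.12 and Klf11 -0.26 (adjusted p = 0.101, and called at -0.42 with 0.0309 without BDNF 1 h replicate A), and leaving out any of the 4 BDNF libraries of these times ended the Klf2 call (adjusted p from 0.117 to 0.389). From 6 to 10 h of BDNF only Klf10 was called. From 1 to 6 h of KCl 3 members rose and 3 fell (30.9% and 28.7%). Klf4 fell by 3.01 (8.04-fold), Klf10 by 1.00 and Klf9 by 0.68, while Klf7 rose by 0.76, Klf3 by 0.30 and Klf6 by 0.25. The Klf3 call was lost without KCl 1 h replicate A (adjusted p = 0.285), KCl 6 h replicate A (0.131) or KCl 6 h replicate B (0.164), and the Klf6 call without KCl 1 h replicate B (0.191) or KCl 6 h replicate B (0.113). Calls also appeared when a library was left out, a fall of Klf16 by 0.56 without KCl 1 h replicate B (adjusted p = 0.000928) and a fall of Klf2 by 1.62 without KCl 6 h replicate A (0.00862). From 6 to 10 h of KCl 1 member fell and 0 rose (9.66% and 12.9%), Klf4 by 0.72 (adjusted p = 0.0490). That call was lost without KCl 6 h replicate A (0.102), KCl 6 h replicate B (0.127) or KCl 10 h replicate A (0.451), while Klf2 rose by 1.65 without KCl 6 h replicate A (0.0182) and Klf9 by 0.43 and 0.46 without KCl 6 h replicate A or KCl 10 h replicate B (0.0515 and 0.0569).

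Levels were compared between members per kilobase of annotated exon. In controls Klf6 (198 normalised reads per kilobase) and Klf13 (190) were highest and overlapped between libraries. Klf7 (144), Klf16 (117), Klf11 (89.9), Klf10 (51.6) and Klf9 (26.2) followed without overlap, and Klf3 (16.3), Klf4 (13.1) and Klf2 (8.08) each overlapped the next. After 1 h of BDNF the order of levels had Klf10 at the top with 681 per kilobase, ahead of Klf16 (571), Klf6 (400) and Klf13 (309).

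**Figure D4:**
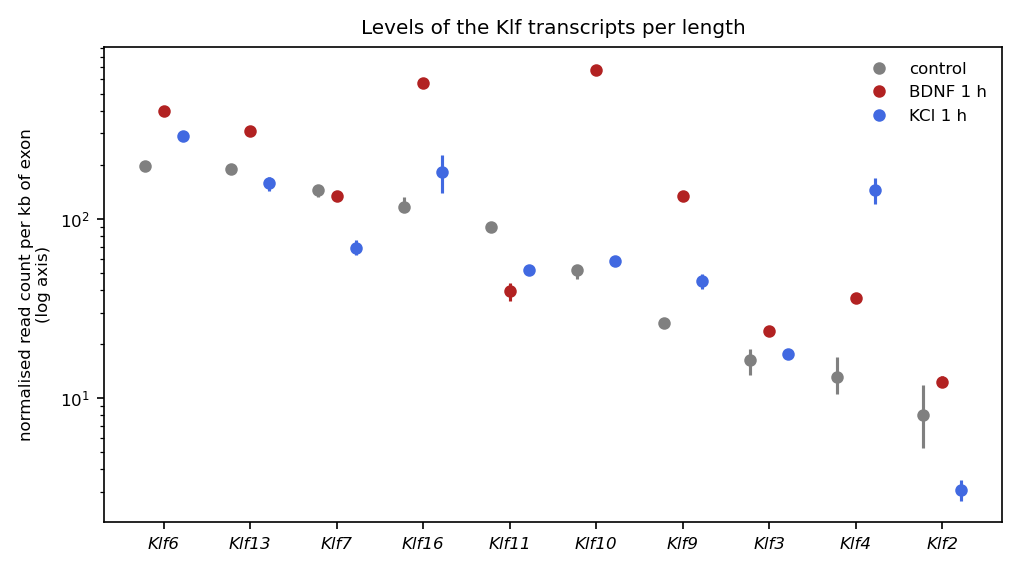
Normalised read count per kilobase of exon (log axis) of the 10 Klf genes in controls (grey, 6 libraries), after 1 h of BDNF (red, 2) and after 1 h of KCl (blue, 2), with points at the mean and lines from the lowest to the highest library. In controls Klf6 (198) and Klf13 (190) lead, and after 1 h of BDNF Klf10 (681) and Klf16 (571) are above them.

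The patterns over the 9 group means were compared by Pearson correlation of log2 values, as a description over points that share libraries and depth. The nearest genes below were picked as the highest of all candidates, so their values are high by selection. The correlation also ignores the size of a change. After 1 h of BDNF Actg1 rose less than Klf16 (0.49 and 2.28), and Pvr rose more than Klf6 (1.525 and 1.02). Among the members, Klf9 and Klf16 (0.94) and Klf10 and Klf16 (0.90) were most alike, and Klf3 and Klf11 ran most opposite (-0.92). Among 11553 other protein-coding genes with a mean of at least 50, the nearest to Klf10 were Kcnc4, a potassium channel gene (0.97), and Tnfaip8l1 (0.97). Nearest to Klf9 were Dnajb1, an HSP40 chaperone (0.99), and Eif2ak3, the stress kinase PERK (0.98). Nearest to Klf16 were Btaf1 (0.99) and Actg1, gamma-actin (0.98), and nearest to Klf13 Tcf20 (0.98) and Sertad4 (0.97). Klf4 was nearest to Spty2d1 (0.99) and Recql4, a DNA helicase (0.98), Klf6 to Cltc, clathrin heavy chain (0.98), and Pvr (0.98), and Klf7 to Slc25a36 (0.97) and Fam214b (0.97). Klf11 was nearest to Abcg1, a cholesterol transporter (0.98), and Fcho1 (0.97), Klf2 to Mcm10 (0.96) and Zfp704 (0.96), and Klf3 to Clvs1 (0.96) and Cgref1 (0.96).

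A further 7 Klf genes and the genes around the family were taken as lists. Their counts at 1 h stand beside 21.3% higher and 19.0% lower of all genes with BDNF and 26.5% and 28.2% with KCl, and beside a median log2 difference of 0.00 over all genes with either stimulus. Of the other Klf genes, Klf5, Klf8, Klf12 and Klf15 could be tested and Klf1, Klf14 and Klf17 were below the filter. Of the 4 tested, 1 rose and 1 fell after 1 h of BDNF (median log2 difference -0.03). After 1 h of KCl, 1 rose and 2 fell (median -0.08). Klf5, a growth-linked activator, rose by 1.74 after 1 h of BDNF (mean 88.1 in controls and 296) and by 0.63 after 1 h of KCl. Klf15, known as a glucocorticoid target, fell by 1.10 after 1 h of KCl (158 and 72.8). It rose by 0.47 and 0.485 after 6 and 10 h of KCl. Of the 8 Sp factors tested, which bind the same GC boxes as the Klf proteins, 5 rose and 0 fell after 1 h of BDNF (median log2 difference 0.22), and 2 rose and 5 fell after 1 h of KCl (median -0.28). Sp7, the osteoblast factor, was the one past a log2 difference of 1, at -1.24 after 1 h and -1.12 after 6 h of KCl. Of 9 cofactors, among them Sin3a and Ctbp1, 4 rose and 2 fell after 1 h of BDNF (median 0.12) and 3 and 2 after 1 h of KCl (median 0.11), and Ctbp2 fell under all 6 conditions. Of the 4 ubiquitin ligases known to act on Klf proteins, 3 rose and 0 fell after 1 h of BDNF (median 0.28), and 1 rose and 1 fell after 1 h of KCl (median 0.07).

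Upstream of Klf2 and Klf4 in other cells lies the ERK5 and MEF2 route, read against the same shares of all genes. Of 7 tested genes of that route, 4 rose and 1 fell after 1 h of BDNF (median 0.18) and 4 rose and 0 fell after 1 h of KCl (median 0.27). Mef2c fell after 1, 6 and 10 h of BDNF (mean 4500 in controls and 2538, 1834 and 2513). With KCl it rose by 0.31 after 1 h and fell by 0.20 after 10 h. Of 4 hormone receptors known to act on Klf9, 0 were called after 1 h of BDNF (median 0.04), and 2 rose and 2 fell after 1 h of KCl (median 0.02). Thrb, a thyroid hormone receptor, rose by 1.42 and 1.36 after 6 and 10 h of BDNF. With KCl it fell by 1.11 after 1 h and rose by 0.28 and 0.55 after 6 and 10 h. Nr3c2, the mineralocorticoid receptor, rose by 0.49 after 1 h of KCl and fell by 1.33 and 0.67 after 6 and 10 h. Of 9 TGF-beta genes, 3 rose and 1 fell after 1 h of BDNF (21.3% and 19.0% of all genes, median 0.10) and 2 and 1 after 1 h of KCl (26.5% and 28.2%, median 0.06), and Smad7, an inhibitor of the pathway, rose by 1.32 and 1.05. Of 6 genes known as Klf targets, 3 rose after 1 h of BDNF (21.3% of all genes, median 0.18) and 4 after 1 h of KCl (26.5%, median 0.37), and 0 fell. Cdkn1a, which encodes the cell-cycle inhibitor p21, rose by 2.77, 2.34 and 1.54 after 1, 6 and 10 h of BDNF. With KCl it rose by 0.77, 1.19 and 0.79 at these times.

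ATAC-seq gave 58177 peaks, of which 56383 passed a mean of 10 reads. Peaks were linked to a Klf gene where its protein-coding start was the nearest and lay within 50 kb. That gave 37 peaks, 13 at promoters (1000 bases before to 100 after a start) and 24 elsewhere, from 1 for Klf2 and Klf16 to 8 for Klf13. Peak values are reads after LOESS scaling, and calls were made by edgeR's quasi-likelihood test at an adjusted p below 0.1 over all peaks. After BDNF 5 linked peaks gained and 1 lost accessibility at 1 h (11.2% and 5.20% of all peaks), 3 and 1 at 6 h (7.33% and 2.07%) and 1 and 0 at 10 h (6.23% and 2.04%). After KCl 7 gained and 1 lost at 1 h (4.88% and 3.08%), 3 and 0 at 6 h (4.65% and 2.09%) and 1 and 0 at 10 h (4.98% and 2.09%). Of the gained peaks at 1 h, 1 of 5 was at a promoter with BDNF and 5 of 7 with KCl, and 4 of these 5 promoters were lost with TMM scaling or DESeq2 size factors. Either scaling gave 4 gained and 2 lost after 1 h of KCl. With DESeq2 size factors the split was 5 and 5 after 1 h of BDNF, 2 and 2 after 10 h of BDNF, 3 and 3 after 6 h of KCl and 2 and 4 after 10 h of KCl. With TMM scaling it was 5 and 4 after 1 h of BDNF, 3 and 2 after 6 h of KCl and 2 and 2 after 10 h of KCl, and with either scaling 3 and 2 after 6 h of BDNF.

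Among the peaks within 50 kb the largest gain was at the Klf6-linked intergenic peak 31.4 kb downstream of the start (chr13:5892796-5893045), printed above with 2 AP-1 matches. Scaled reads were 2.93 to 13.1 in controls, 46.1 and 38.5 after 1 h of BDNF, 40.7 and 31.7 after 6 h, 25.3 and 39.2 after 10 h, 18.8 and 6.25 after 1 h of KCl, 26.0 and 5.0 after 6 h, and 25.1 and 22.6 after 10 h. All BDNF libraries exceeded the controls, and of the KCl groups that of 10 h did. The log2 difference was 2.21 (SE 0.37, adjusted p = 9.34e-07), 1.97 and 1.84 with BDNF and 1.38 after 10 h of KCl, and BDNF exceeded KCl by 1.82 at 1 h. The calls at 10 h were lost without BDNF 10 h replicate B (adjusted p = 0.172) and without KCl 10 h replicate A (0.251) or B (0.155), and that of BDNF against KCl without KCl 1 h replicate B (0.285). After 6 h of KCl, where the 2 libraries lay far apart, this peak was not called with LOESS scaling. It was called there with TMM scaling (1.25, adjusted p = 0.0627) and with DESeq2 size factors (1.205, adjusted p = 0.0736).

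The Klf9-linked peak 46.7 kb downstream (chr19:23187794-23188151, intergenic) opened briefly. Controls held 7.21 to 20.8, BDNF 49.4 and 46.8 at 1 h but 13.7 and 13.5 at 6 h and 9.69 and 13.2 at 10 h. KCl gave 35.0 and 18.4, 29.5 and 35.2, and 26.6 and 29.6 at these times. The rise of 1.61 (SE 0.33, adjusted p = 7.56e-05) was called at 1 h, as the Klf9 transcript was. The transcript was also called higher after 6 h of BDNF, when the peak lay within the control range. It was called higher after 1 and 10 h of KCl too, when the peak was not called. The KCl libraries of 6 and 10 h lay above every control but were not called (1.01 and 0.84, adjusted p = 0.118 and 0.194), and were called with TMM scaling (1.16 and 1.01, adjusted p = 0.0384 and 0.0594). The Klf9 promoter printed above, with an AP-1 match and a TGACG, gave 0.10 after 1 h of BDNF (adjusted p = 0.640) and 0.30 after 1 h of KCl (adjusted p = 0.0664). At the Klf9 peak 25.8 kb into the gene KCl exceeded BDNF at 1 h (-1.63, adjusted p = 0.00757).

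Klf4 had 2 upstream peaks, one called with BDNF and the other with KCl. The intergenic peak 9.4 kb upstream (chr4:55541761-55541967) held 1.41 to 14.9 in controls and 23.0 and 28.9 after 1 h and 19.5 and 23.6 after 6 h of BDNF, a gain of 1.64 (SE 0.45, adjusted p = 0.00461) and 1.38 (adjusted p = 0.0426). Its difference between BDNF and KCl at 1 h was 1.28 (SE 0.55) and was not called (adjusted p = 0.126). The intergenic peak 14.7 kb upstream (chr4:55547057-55547358) held 5.46 to 16.1 in controls, 11.9 and 9.25 after 1 h of BDNF and 32.3 and 31.1 after 1 h of KCl, a gain of 1.44 with KCl (SE 0.40, adjusted p = 0.0201) and a difference of -1.58 between BDNF and KCl (adjusted p = 0.0345). These peaks hold 1 to 53 reads per library, and leaving out 1 library ended calls at both. The nearer peak lost its calls without BDNF 1 h replicate B (adjusted p = 0.243), BDNF 6 h replicate A (0.207) or BDNF 6 h replicate B (0.434). The farther peak lost the gain without KCl 1 h replicate A (0.187) or B (0.188), and the difference between stimuli without BDNF 1 h replicate A (0.124), BDNF 1 h replicate B (0.257) or KCl 1 h replicate B (0.149). The Klf4 promoter gained 0.32 after 6 h of KCl and was 0.60 lower with BDNF than with KCl at 6 h (log2). The gain was lost with TMM scaling (0.14, adjusted p = 0.573), with DESeq2 size factors (0.10, adjusted p = 0.717) and against the controls of 6 h alone (0.37, adjusted p = 0.151). Both calls were lost without KCl 6 h replicate B (0.585 and 0.161), the shallowest ATAC library. The gain was also lost without KCl 6 h replicate A (0.126) or any control but 10 h replicate A (0.108 to 0.141), and the difference without BDNF 6 h replicate A (0.181).

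Klf13 had 8 linked peaks. The one at its internal start (chr7:63925073-63925654) held 17.3 to 42.4 in controls, 80.0 and 103 after 1 h of BDNF, 53.5 and 61.6 after 6 h, and 61.2 and 47.1 after 10 h, all above every control. KCl gave 60.4 and 54.8 after 1 h and 52.9 and 65.8 after 6 h, also above every control, and 33.9 and 45.8 after 10 h, which overlapped them. It gained 1.52 (SE 0.23, adjusted p = 7.35e-08) and 0.86 with BDNF and 0.85 and 0.85 with KCl after 1 and 6 h, and all but the first call were lost against the controls of the same time (adjusted p = 0.218, 0.326 and 0.295). After 10 h of BDNF the difference was 0.75 (SE 0.28) and was not called (adjusted p = 0.101), and it was called against the controls of 10 h alone (1.31, adjusted p = 0.0236), with TMM scaling (0.76, adjusted p = 0.0762), with DESeq2 size factors (0.72, adjusted p = 0.0990) and with limma (0.81, adjusted p = 0.0591). Without BDNF 6 h replicate B (0.280), either KCl library of 1 h (0.218 and 0.144) or either of 6 h (0.206 and 0.293) the calls at 1 h of KCl and at 6 h were lost too. The main Klf13 promoter was called in no comparison, but fell by 0.30 and 0.35 after 1 and 6 h of KCl with TMM scaling. A peak 12.4 kb from the start gained 0.81 after 1 h of BDNF and was 1.20 higher with BDNF than with KCl, and a peak 0.98 kb from the start was 0.66 lower after 1 h of BDNF.

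The promoters of Klf10 and Klf16 were not called with BDNF. At the Klf10 promoter (chr15:38300524-38301504) controls held 320 to 397 scaled reads and the BDNF libraries of 1 h 369 and 392, a difference of 0.12 (adjusted p = 0.519), beside the 13.2-fold higher transcript. At the Klf16 promoter controls held 154 to 212 and the same libraries 200 and 205 (0.13, adjusted p = 0.596). Beyond the 50 kb limit, an intergenic peak 83.9 kb upstream of Klf10 (chr15:38384249-38384975), whose nearest protein-coding start is that of Klf10, was the most changed peak linked by the wider limit of 100 kb, and it was singled out after its values were seen. It held 21.5 to 57.6 scaled reads in controls, 189.7 and 204 after 1 h of BDNF, 165 and 129 after 6 h, 93.1 and 109 after 10 h, and 41.5 to 46.7 in the KCl libraries. All BDNF libraries were above every control. All KCl libraries lay within the control range only through control 10 h replicate A (57.6). The other controls of this peak reached at most 28.8, below every KCl library. It gained 2.69 (SE 0.20, adjusted p = 2.39e-24), 2.26 and 1.74 with BDNF, was not called with KCl (0.48, 0.49 and 0.53, adjusted p = 0.235, 0.361 and 0.255), and was 2.21, 1.77 and 1.21 higher with BDNF than with KCl. After 1 h of KCl the Klf9 transcript was higher, that of Klf11 was lower, and those of Klf10 and Klf3 were not called. At that time the promoters of Klf10 (0.37), Klf11 (0.38), Klf3 (0.38) and Klf9 (0.30) gained. All 4 were lost with DESeq2 size factors, with TMM scaling (0.17, 0.21, 0.25 and 0.14, adjusted p = 0.299, 0.211, 0.162 and 0.452) and without KCl 1 h replicate B (adjusted p = 0.207, 0.177, 0.267 and 0.698). Without KCl 1 h replicate A Klf11 (0.104) and Klf3 (0.171) were lost, and without control 6 h replicate A (0.127) or 10 h replicate A (0.105) Klf9 was.

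At the highest promoter peaks of Klf6, Klf7 and Klf2 no comparison was called with LOESS scaling. The Klf6 promoter peak held 433.2 to 507 scaled reads in controls and 435 and 461.5 after 1 h of BDNF (-0.12, adjusted p = 0.478). With TMM scaling it was called lower after 1 h of BDNF (-0.23, adjusted p = 0.0888) and after 10 h of KCl (-0.48, adjusted p = 0.000183), and with DESeq2 size factors after these (-0.24 and -0.52, adjusted p = 0.0705 and 3.83e-05) and after 6 h of KCl (-0.26, adjusted p = 0.0866). The Klf7 promoter peak held 372 to 484 in controls and 465 and 419.5 after 1 h of KCl (0.06, adjusted p = 0.795), when its transcript fell. The Klf2 promoter peak held 65.9 to 108 in controls and 120.4 and 115 after 1 h of KCl, above every control (0.46, adjusted p = 0.110), and it was called with TMM scaling (adjusted p = 0.0841), with DESeq2 size factors (0.0981) or without control 10 h replicate A (0.0971) or B (0.0626). An intronic Klf3 peak 2.91 kb from the start gained 0.98 after 1 h of KCl (28.1 and 52.4 against 6.76 to 29.0 in controls, overlapping), and that call was lost without KCl 1 h replicate B (0.760) or control 1 h replicate B (0.167).

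**Figure D5:**
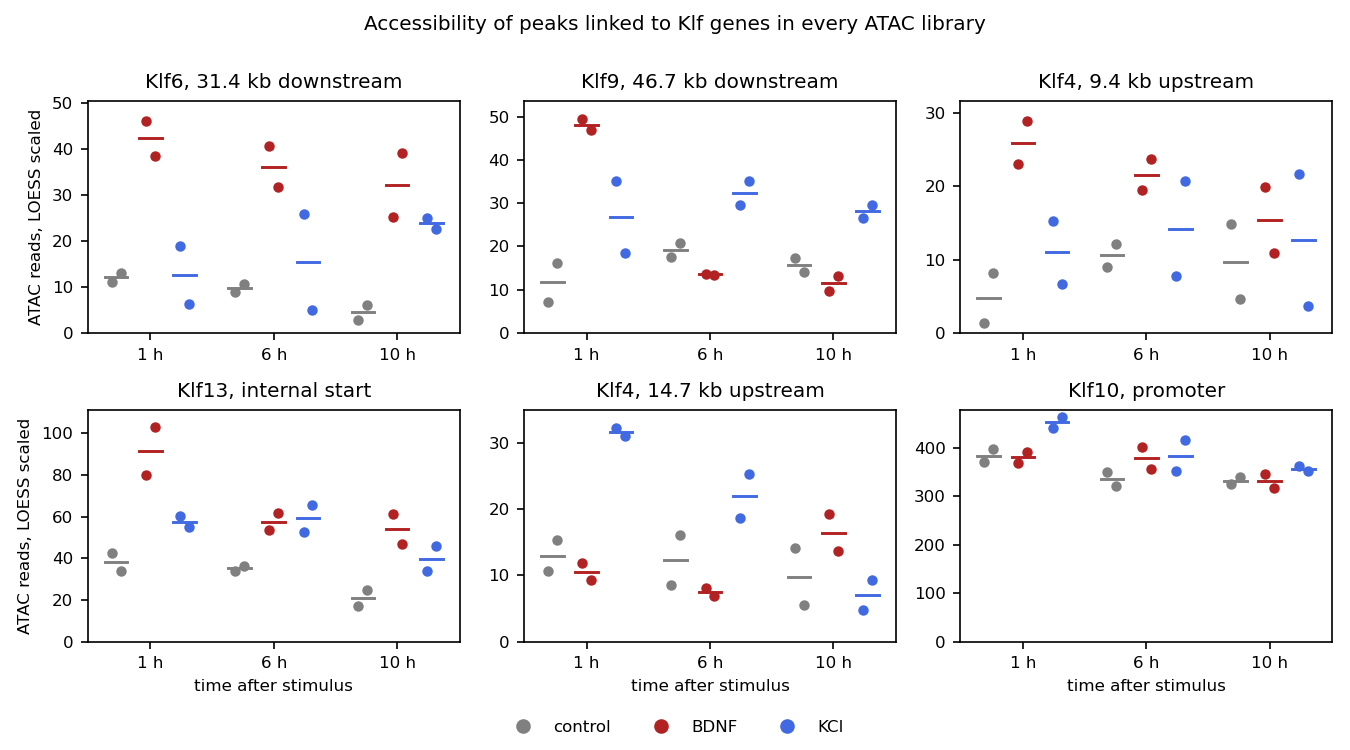
Scaled ATAC reads in each of the 18 libraries at 6 Klf-linked peaks, against time after stimulus, in grey for controls, red for BDNF and blue for KCl, with a bar at the mean of each group of 2. The Klf6-linked peak stays above the controls with BDNF at all times, the Klf9-linked peak only at 1 h, and the Klf4-linked peaks 9.4 and 14.7 kb upstream are highest in the BDNF and the KCl libraries of 1 h, respectively.

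Between the stimuli at 1 h 2 linked peaks were higher with BDNF while KCl gave more reads at 5 (8.48% and 5.62% of all peaks), 0 and 1 at 6 h (2.02% and 1.36%) and 0 and 0 at 10 h (1.07% and 0.811%). At 10 h edgeR thus called 0 linked peaks, 1 was under an unadjusted p of 0.05 and limma also called 0. The Klf11 promoter was 0.53 lower with BDNF at 1 h (adjusted p = 0.00136) and the Klf3 promoter 0.48 lower, a call lost without BDNF 1 h replicate B (0.148) or KCl 1 h replicate B (0.143). With TMM scaling or DESeq2 size factors the split was 4 and 5 at 1 h, where the Klf4 peak 9.4 kb upstream (1.53 and 1.54, adjusted p = 0.0554 and 0.0528) and the main Klf13 promoter (0.29 and 0.29, adjusted p = 0.0574 and 0.0478) were also called higher with BDNF, and 1 and 2 at 6 h.

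The motif letters were counted in these windows as a description. AP-1 (TGANTCA) was in 4 of the 5 linked peaks that gained with BDNF at 1 h, in 4 of the 31 not called, and in 8 of all 37. It was in 16.4% of all 58177 peak windows and in 20.2% of the 44519 farther than 1000 bases from a start. These windows held 300 bases around the centre of every peak. Those of the linked peaks were cut to the peak where it was narrower, so the counts and these shares come from unlike windows. It was in 2 of the 7 peaks that gained after 1 h of KCl, while TGACG was in 4 of these 7 and in 16.5% of all windows. Of the 10 members, 8 matched an entry of the RefSeq promoter table and Klf10 and Klf16 did not. Over these 8 promoters the full CRE was in 0 (1.79% of 32851 promoters) and TGACG, which the full CRE contains, in 5 (20.8%). The CArG box was in 0 (1.63%), AP-1 in that of Klf9 (7.81%) and the MEF2 box in that of Klf2 (3.19%). CACCC was in 5 (57.5%) and the GC box GGGCGG, both being the kind of letters that Klf proteins bind, in 7 (35.7%). The 8 promoters were 58.3 to 77.7% G and C, beside a median of 52.7% over all promoters, and the shares were not matched for this.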

How the data were processed

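RNA-seq and ATAC-seq of 18 samples each, 2 in each of 9 groups by stimulus and time, were analysed. The authors trimmed reads with Trimmomatic and mapped them to mm10, with TopHat2 for RNA and Bowtie2 for ATAC. For RNA the authors deposited a signal per gene, read counts divided by a DESeq2 size factor per library. For ATAC the authors called peaks with MACS2, merged them and counted reads with DiffBind, and the values as deposited are whole read counts. Deposited columns of fold changes and p-values were not used, and tool names come from the submitters' processing notes and the study's methods.

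RNA values were tested as log2(value + 1) with limma 3.58.1 (R 4.3.3) over 26709 listed genes, 26203 of them named, after a filter on a mean of at least 10, with the control times pooled. Of the RNA values 100% were whole reads within 0.01, and on these reads edgeR 4.0.16 called 6481, 7151 and 6674 genes for BDNF at 1, 6 and 10 h and 8797, 10794 and 9155 for KCl, and 6793, 9363 and 7272 for BDNF against KCl. DESeq2 1.42.0 was a further alternative. ATAC counts were scaled with LOESS offsets (span 0.3) and tested with edgeR. Depth was 8.51 to 36.7 M RNA reads and 1.24 to 6.24 M ATAC reads in peaks, and no replicate pair was identical. Scripts were tested on simulated data. The 10 genes are all described, other listed genes are named at a called log2 difference of at least 1 or in a clause chosen after their values were seen (Ctbp1, Ctbp2 and Sin3a), and peaks are each gene's highest promoter peak and largest called difference per stimulus, with a few other called peaks chosen after their values were seen. Members and lists were chosen with earlier results of these data known. Alternatives were scaling, filter, pseudocount, tool, threshold, link distance, same-time controls, replicate block and leaving out each library.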

Additional observations from a re-analysis of the deposited data

Results flagged for a closer look

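The BDNF effect, each time taken against the controls of that time, differed between 6 h and 1 h in 7 Klf genes by the interaction term in limma. The log2 effect at 6 h minus that at 1 h was -1.99 for Klf10 (adjusted p = 4.38e-07), -1.84 for Klf9 (7.63e-06), -1.44 for Klf16 (0.000361), -1.07 for Klf4 (0.0587), -1.06 for Klf13 (2.03e-05), -0.68 for Klf7 (0.00505) and -0.68 for Klf6 (0.00113). The KCl effect differed in the same way in 4 genes, by -3.06 for Klf4 (4.06e-06), -1.06 for Klf10 (0.000127), -0.63 for Klf9 (0.0210) and 0.75 for Klf7 (0.000744).

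Single control libraries stood far from the other 5 at 3 items, where the gap to the nearest library over the whole range exceeded Dixon's 95% critical value for 6 samples. Klf10 was lowest in control 10 h replicate A at 193.46 normalised reads (0.651). The Klf6 promoter peak was lowest in control 6 h replicate B at 433.2 scaled reads (0.728), and the Klf4 promoter peak was highest in control 10 h replicate A at 310.0 (0.726). Chance gives such a gap in about 1 of 20 groups, and 26 items were examined.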

How the results depend on the processing

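Over all alternatives, 49 of 330 counts of called Klf genes or peaks moved by more than 1.5 times. Of 2081 refitted gene differences 59 lost and 11 gained a call and 0 changed sign with a call, and of 1776 peak differences 79 lost and 47 gained one and 3 changed sign. These 3 were promoter peaks with DESeq2 size factors, Klf6 after 6 h of KCl (-0.26), Klf10 after 10 h of KCl (-0.28) and Klf13 after 10 h of KCl (-0.25). The cause was not tested. Klf genes called between 6 and 10 h of KCl went from 1 to 0 with DESeq2 and at an adjusted p below 0.01. Linked peaks called after 1 h of BDNF went from 6 to 10 with DESeq2 size factors, and after 6 h from 4 to 1 at 0.01, 2 with limma and 1 with same-time controls. After 10 h of BDNF they went from 1 to 2 with links to 100 kb, TMM, no filter or same-time controls, 4 with DESeq2 size factors and 3 with limma. After 1 h of KCl they went from 8 to 2 at 0.01, 5 with limma and 2 with same-time controls, after 6 h from 3 to 0 at 0.01 or with same-time controls, 5 with TMM and 6 with DESeq2 size factors, and after 10 h from 1 to 0 at 0.01, 4 with TMM and 6 with DESeq2 size factors. For BDNF against KCl they went from 7 to 3 at 0.01 for 1 h, from 1 to 3 with 100 kb, TMM or DESeq2 size factors for 6 h, and from 0 to 1 with 100 kb for 10 h. Leaving out 1 library gave 0 to 1 called genes from 6 to 10 h of BDNF and 0 to 2 for KCl. For linked peaks it gave 1 to 4 after 6 h and 0 to 2 after 10 h of BDNF, 0 to 9, 0 to 3 and 0 to 1 after 1, 6 and 10 h of KCl, and 2 to 9 and 0 to 1 for BDNF against KCl at 1 and 6 h. RNA libraries of the same letter deviated together in 13 of 36 pairs of groups (correlation over 0.1, range -0.315 to 0.418). Whether the letters mark a batch was not tested. The replicate block changed 1 call, Klf11 from 1 to 6 h of BDNF (-0.26, adjusted p = 0.0969). No paired analysis was possible for ATAC because its columns carry no replicate label, and letters A and B there mark only column order. Low reads limit Klf2 and the distal peaks.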

Other observations

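Klf14, a maternally expressed imprinted gene, was below the filter and was not tested. Its mean normalised read count was 2.15 in controls (1.96 to 2.40 over 6 libraries), 6.09, 9.97 and 8.11 after 1, 6 and 10 h of BDNF, and 9.30, 12.0 and 10.7 after 1, 6 and 10 h of KCl. It was singled out after its values were seen.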
